A study of Mus musculus with 30 samples.

Results

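The 8 genes described here, Gata4, Gata6, Nkx2-5, Tbx5, Tbx20, Hand1, Hand2 and Irx4, encode transcription factors of the heart. They were chosen by symbol, and all 8 had a row among the 36103 genes of the count table. The table holds poly(A) RNA-seq of whole heart, gastrocnemius, diaphragm and liver from male Mtm1-/y mice (labelled Mtm1KO), a knock-out of the gene for the phosphoinositide phosphatase myotubularin, and from their wild-type (WT) littermates, all bred on the 129Pas background and taken at 5 weeks. Each genotype had 4 libraries of heart and 4 of gastrocnemius. There were 4 WT and 3 Mtm1-/y libraries of diaphragm (numbers 1, 2 and 4), and 3 WT and 4 Mtm1-/y libraries of liver.

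These factors form the core regulatory network of heart muscle cells. GATA4 and GATA6 are zinc-finger proteins that bind the sequence GATA, NKX2-5 is the homeodomain factor of the cardiac progenitor, TBX5 and TBX20 are T-box proteins, HAND1 and HAND2 are basic helix-loop-helix proteins, and IRX4 is an Iroquois homeodomain protein. They act together on the same enhancers, where NKX2-5, GATA4 and TBX5 bind one another, and they switch on genes of the sarcomere, the ion channels and the natriuretic peptides. Their territories in the heart differ: TBX5 is known for the atria and the conduction system, IRX4 for the ventricles, HAND1 for the outer curvature of the embryonic left ventricle and HAND2 for the right ventricle and the epicardium. Outside the heart, GATA4 and GATA6 are known in liver endothelium, stellate cells and mesothelium, and HAND2 in stellate cells and nerves.

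Library totals lay between 24873817 and 44289343 counts. Levels are given as CPM, a gene's reads as a share of the library's total, after TMM scaling over all 30 libraries. Mtm1, the deleted gene, stood at 15.5 to 27.0 CPM in the 15 WT libraries and at 3.49 to 8.08 CPM in the 15 Mtm1-/y libraries. Cardiomyocyte markers (8 genes, among them Myh6 and Tnnt2) summed to 39651 CPM or more in every heart library and to at most 7.85 CPM in liver. All 12 skeletal muscle markers were detected in the gastrocnemius and the diaphragm, where they summed to 63208 CPM or more. They were also detected in heart, but summed to at most 2995 CPM there and to at most 171 CPM in liver. All 10 hepatocyte markers were detected in every tissue and summed to 177965 CPM or more in liver. In 4 diaphragm libraries (WT 1, 2 and 4 and Mtm1-/y 2) the 10 hepatocyte markers summed to between 24366 and 45189 CPM, against 446 to 2871 CPM in the other 3 and 19.3 to 124 CPM in the gastrocnemius. Each result on the diaphragm below is read beside that difference. The heart libraries differed in atrial markers, which are given with Tbx5.

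In whole organs, a lower level can stem from fewer cells of a type or from less RNA per cell, and these cannot be told apart here. The genes lie on separate chromosomes of mm10: Gata4 at chr14:63198922-63271692 on the minus strand, Nkx2-5 at chr17:26838664-26845009 on the minus strand, Tbx5 at chr5:119832668-119885219 on the plus strand, Tbx20 at chr9:24718138-24774303 on the minus strand, Hand1 at chr11:57828705-57832818 on the minus strand, Hand2 at chr8:57320983-57324633 on the plus strand, Irx4 at chr13:73260479-73269608 on the plus strand and Gata6 at chr18:11052064-11085635 on the plus strand. Exons of 2 of them overlap an antisense gene. Hand2 shares 461 exon bases with Hand2os1, whose counts in heart were 1632 to 2676 against 698 to 1255 for Hand2, and Gata6 shares 93 bases with 1010001N08Rik, whose counts were 302 to 445 against 1460 to 2473. The libraries kept strand, but the strand setting of the counting is not given in the sources used here. The study retained only reads that could be assigned without ambiguity. Whether reads from the shared bases were assigned by strand or dropped is therefore not known.

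Within the heart, levels divided by the length of the merged exons placed Gata4 highest by its mean. Its level was 24.3 ± 1.65 CPM per kb in WT and 26.8 ± 2.81 in Mtm1-/y hearts (SD, n = 4 each), and its lowest WT library, at 21.9, lay above the highest library of Tbx20 at 17.6. Tbx20 (14.45 ± 2.62 CPM per kb) and Hand2 (12.98 ± 1.80) followed in WT hearts with overlapping libraries. Nkx2-5 (9.03 ± 1.38) and Gata6 (8.93 ± 0.975) overlapped each other and lay below the lowest Tbx20 library at 12.0, while the highest Nkx2-5 library (10.8) passed the lowest Hand2 library (10.4). Irx4 was the lowest of the detected factors in WT hearts, at 5.44 ± 2.19 CPM per kb. Tbx5 had no stable place, since its WT libraries ran from 4.11 to 39.3 CPM per kb, below the lowest Nkx2-5 library and above the highest Gata4 library. In Mtm1-/y hearts the order below Gata4 was Hand2, Tbx20, Gata6, Irx4, Nkx2-5 and Tbx5. There Gata6, Irx4 and Nkx2-5 formed a run of overlapping neighbours between 5.15 and 9.17 CPM per kb.

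**Figure D1:**
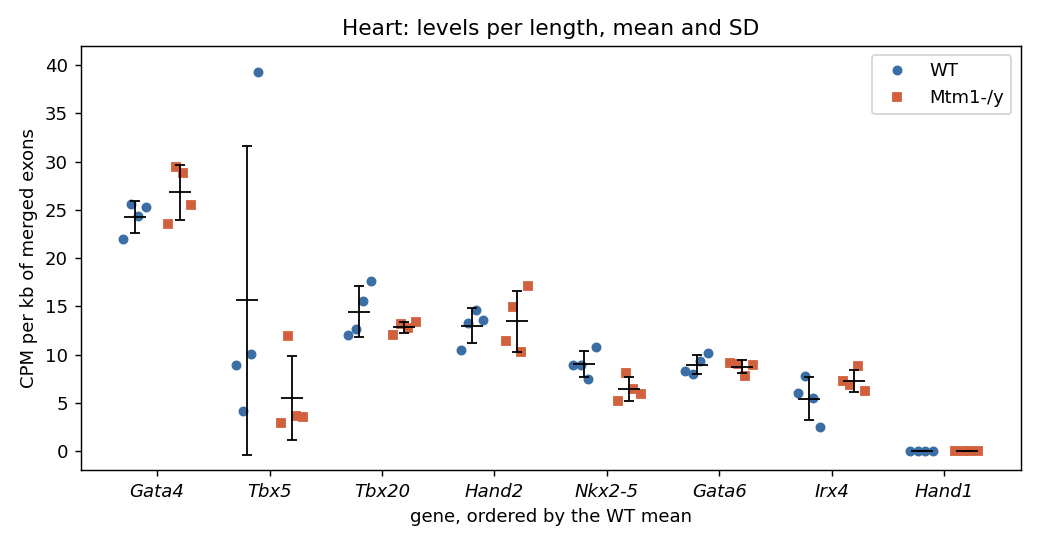
Level of each factor in the 8 heart libraries, in CPM per kb of merged exons (vertical axis, linear); circles are WT and squares Mtm1-/y libraries, and bars show the mean and SD of 4 libraries. Gata4 sits above Tbx20, Hand2, Nkx2-5, Gata6 and Irx4 in both genotypes, Tbx5 spreads from 4.11 to 39.3 CPM per kb in WT hearts, and Hand1 is at 0 in all 8.

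Hand1 gave 0 counts in all 8 heart libraries. Its only read in the 30 libraries was in the diaphragm of Mtm1-/y mouse 4. Over the 4 WT hearts a count of 0 allows at most 0.0211 CPM, so Hand1, which belongs to the embryonic ventricle, was not detectable at this depth and entered no test.

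Across tissues, the other 7 factors were all highest in the heart, in both genotypes. Differences were tested across all genes with edgeR's quasi-likelihood test, and "called" stands for a Benjamini-Hochberg adjusted p below 0.05 together with an absolute log2 difference above 1. In WT mice 7 of the 7 factors tested were called higher in heart than in gastrocnemius, where 17.7% of all genes were called higher, than in diaphragm (8.83%) and than in liver (30.6%). In Mtm1-/y mice it was again 7 of 7 against each tissue, with 13.6%, 7.56% and 29.4% of all genes called higher. Nkx2-5 and Irx4 passed the filter on low counts only through their heart libraries and therefore had to differ, so these counts are a description. The largest adjusted p among these comparisons was 0.000438 (Irx4, Mtm1-/y heart over diaphragm).

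**Figure D2:**
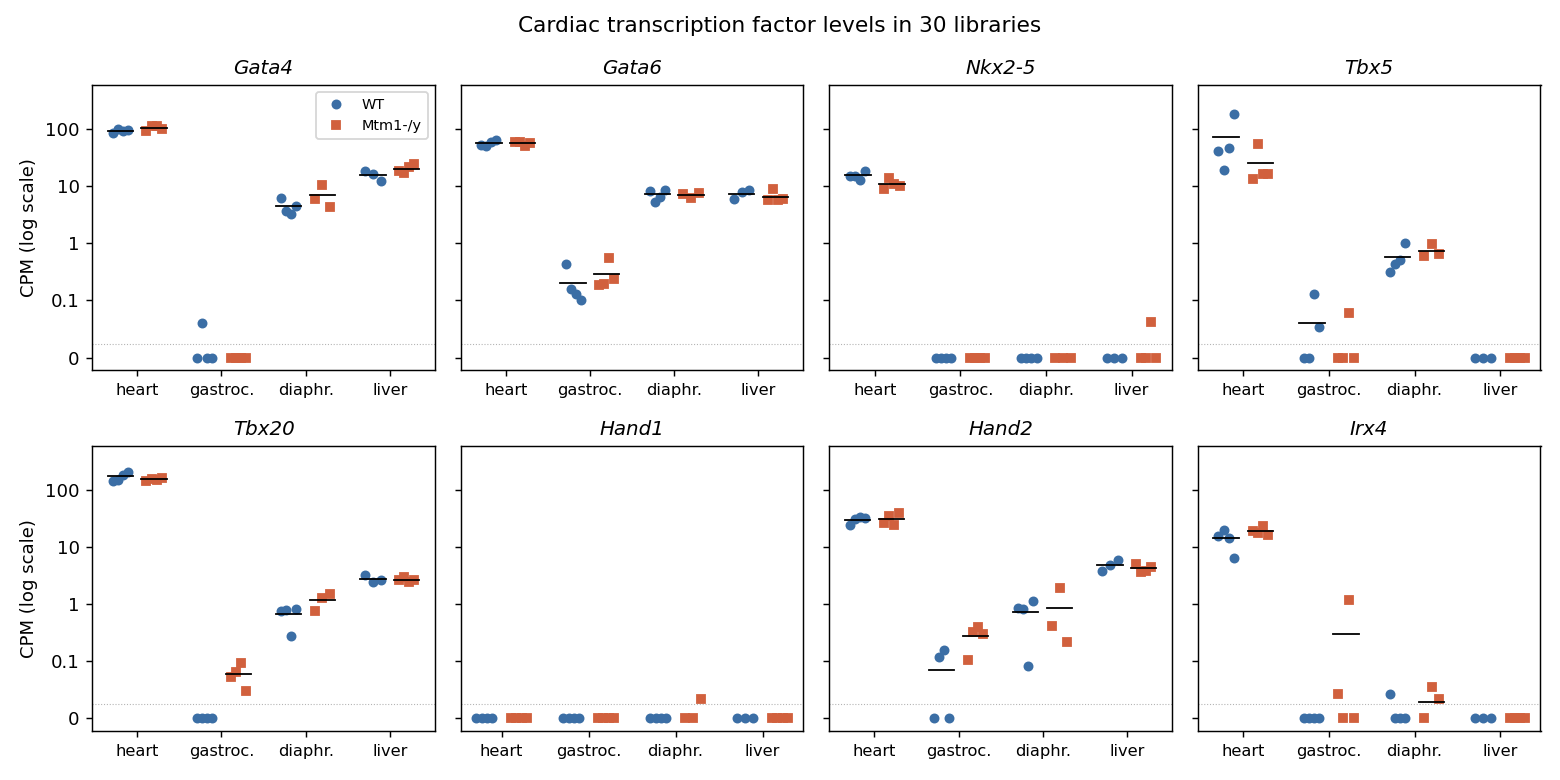
CPM of the 8 factors in each of the 30 libraries by tissue, on a log axis; circles are WT, squares are Mtm1-/y, black lines are group means, and libraries without a read are drawn at the bottom at 0, under the dotted line. Every detected factor is highest in the heart; Gata4 and Gata6 keep measurable levels in diaphragm and liver, and Nkx2-5 and Irx4 are near 0 outside the heart.

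Gata4 stood at 85.6, 99.8, 95.1 and 98.8 CPM in the WT hearts and at 91.7, 115, 112 and 99.4 in the Mtm1-/y hearts. The liver came second, with 18.4, 16.2 and 12.7 CPM in WT mice and 18.7, 17.5, 21.5 and 24.5 in Mtm1-/y mice. The diaphragm held 6.35, 3.71, 3.33 and 4.51 CPM in WT mice and 6.05, 10.4 and 4.38 in Mtm1-/y mice. No heart library overlapped any other tissue, and the liver libraries lay above all diaphragm libraries. In the gastrocnemius Gata4 gave 1 read in 4 WT libraries and none in 4 Mtm1-/y libraries. Pooled over libraries, the WT heart was 5.91-fold above the liver and 21.5-fold above the diaphragm, and the Mtm1-/y heart was at least 4671-fold above the gastrocnemius, counted against a floor of 3 reads over the group.

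Gata6, the paralog of Gata4, was flatter across the 3 tissues outside the limb muscle. WT hearts held 54.1, 51.8, 60.7 and 65.8 CPM, WT livers 5.91, 7.94 and 8.60 CPM and WT diaphragms 8.43, 5.23, 6.49 and 8.81 CPM. Unlike Gata4, its liver and diaphragm libraries overlapped, and the log2 difference between them was 0.05 (SE 0.23, adjusted p = 0.859) in WT and -0.06 (SE 0.22, adjusted p = 0.822) in Mtm1-/y mice. The gastrocnemius kept a low level of Gata6, 0.103 to 0.429 CPM in WT mice and 0.185 to 0.550 in Mtm1-/y mice, from 25 and 39 reads. Gata6 was thus read in every one of the 30 libraries, and the WT heart was 275-fold above the WT gastrocnemius (95% counting interval 186 to 425, which covers counting error only).

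Nkx2-5, the homeodomain factor of the cardiac progenitor, stood at 15.4, 15.3, 12.8 and 18.6 CPM in WT hearts and at 8.85, 14.0, 11.1 and 10.1 in Mtm1-/y hearts. Outside the heart it gave 1 read in 22 libraries, in the liver of Mtm1-/y mouse 3. The WT heart was at least 612-fold above the gastrocnemius, at least 829.1-fold above the diaphragm and at least 404-fold above the liver.

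Tbx5, the T-box factor of atria and conduction tissue, had the widest spread in the heart, with 41.5, 19.2, 47.2 and 184 CPM in WT mice and 13.4, 55.9, 16.8 and 16.7 in Mtm1-/y mice. It gave no read in any of the 7 livers, so that the WT heart was at least 1942-fold and the Mtm1-/y heart at least 841-fold above the liver. A low level was read in all 7 diaphragms, between 0.320 and 1.03 CPM, and 3 of 8 gastrocnemius libraries held 1 to 4 reads. Tbx5 was called lower in liver than in diaphragm in both genotypes (adjusted p = 0.0308 in WT and 0.000766 in Mtm1-/y mice), where 30.6% and 30.3% of all genes were called lower. The call in WT mice was lost without WT diaphragm 3 (adjusted p = 0.0618) or 4 (0.0582), or without WT liver 1 (0.0706), 2 (0.0576) or 3 (0.0509), and without the diaphragm libraries rich in hepatocyte markers (0.179).

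Tbx20, a T-box factor of working myocardium and endocardium, stood at 144, 152, 186.5 and 211 CPM in WT hearts and at 144, 158, 153 and 160 in Mtm1-/y hearts. WT livers held 3.21, 2.47 and 2.62 CPM and Mtm1-/y livers 2.70, 2.97, 2.46 and 2.64 CPM. The diaphragm was lower, with 0.747, 0.795, 0.280 and 0.824 CPM in WT mice and 0.745, 1.26 and 1.502 in Mtm1-/y mice, and no diaphragm library reached the lowest liver library. The WT gastrocnemius gave no read of Tbx20, which put the WT heart at least 6862-fold above it.

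Hand2, the helix-loop-helix factor of the right ventricle, stood at 24.5, 31.3, 34.4 and 31.8 CPM in WT hearts and at 26.9, 35.1, 24.1 and 40.3 in Mtm1-/y hearts. The livers held 3.88, 4.86 and 5.89 CPM in WT mice and 5.04, 3.65, 3.82 and 4.55 in Mtm1-/y mice, 6.46-fold and 7.38-fold below the hearts of the same genotype. In the diaphragm Hand2 ran from 0.0839 to 1.16 CPM in WT mice and from 0.215 to 1.91 in Mtm1-/y mice, all below the lowest liver.

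Irx4, the ventricular Iroquois factor, stood at 15.8, 20.2, 14.2 and 6.52 CPM in WT hearts and at 18.8, 17.8, 23.1 and 16.1 in Mtm1-/y hearts. It gave no read in the 7 livers and 3 reads in the 7 diaphragms. In the gastrocnemius it gave no read in WT mice, but 1, 0, 39 and 0 reads in Mtm1-/y mice. The library with 39 reads (1.19 CPM) also held 2.26 CPM of Kcne1, a potassium channel subunit of the ventricular markers, against 0 to 0.0794 CPM in the other 7 gastrocnemius libraries. The 6 ventricular markers together summed to 649.5 CPM there, the lowest of the 8 libraries (916 to 3116 CPM in WT mice and 1506 to 1817 in the other Mtm1-/y mice), and the 8 cardiomyocyte markers to 357.5 CPM, the lowest of its group. Gata3, Irx2 and Bnc1, which are outside both sets, reached 9.44, 6.11 and 3.27 CPM in their highest Mtm1-/y gastrocnemius library. Their highest WT gastrocnemius library held 0.0613, 0.0688 and 0.0642 CPM. The origin of the Irx4 reads was not tested. Against that group the Mtm1-/y heart was 63.5-fold higher, whereas the WT heart was at least 554-fold above the WT gastrocnemius.

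Among the tissues outside the heart, 4 of the 7 factors tested were called lower in gastrocnemius than in diaphragm in each genotype: Gata4, Gata6, Tbx20 and Hand2 in WT mice and Gata4, Gata6, Tbx5 and Tbx20 in Mtm1-/y mice. Of all genes, 18.8% in WT and 12.2% in Mtm1-/y mice were called lower in gastrocnemius. Nkx2-5 and Irx4 were among the 7 only through their heart libraries. Nkx2-5 had 0 reads in both muscles, and Irx4 had 1 read in WT and 2 reads in Mtm1-/y diaphragms. Neither could be called lower in gastrocnemius, so the count is a description. Hand2 missed the call in Mtm1-/y mice (log2 difference -1.48, SE 0.62, adjusted p = 0.0850). The call of Hand2 in WT mice (log2 difference -3.33, edgeR adjusted p = 0.0021) moved with the hepatocyte markers of the diaphragm libraries. WT diaphragm 3, which held the least of them, had 0.0839 CPM of Hand2, within the WT gastrocnemius range of 0 to 0.160 CPM. Without the diaphragm libraries over 10000 CPM of hepatocyte markers the difference of Hand2 was -0.29 (adjusted p = 0.904) in WT mice and -0.21 (adjusted p = 0.777) in Mtm1-/y mice. The single WT diaphragm left is there assumed to vary as the other groups do, and in that fit Gata4, Gata6 and Tbx20 were called lower in the gastrocnemius, with log2 differences of -8.06, -4.92 and -6.15. Gata4, Tbx20 and Hand2 were called higher in liver than in diaphragm in both genotypes, by 1.82, 2.05 and 2.71 on the log2 scale in WT and by 1.60, 1.23 and 2.47 in Mtm1-/y mice, where 19.4% and 20.9% of all genes were called higher. Without Mtm1-/y diaphragm 1, Tbx20 stood at 0.96 there and missed the call by its size. Mesothelial markers, a set of 7 genes of the lining of body cavities in which Gata4 and Gata6 are known, summed to between 184 and 377 CPM in the diaphragm and to between 0.715 and 12.8 CPM in the gastrocnemius. Upk1b and Lrrn4 of that set had no read in the WT gastrocnemius. Sinusoidal endothelium markers, 7 genes, summed to 235 to 354 CPM in liver, 42.3 to 134 CPM in diaphragm and 16.1 to 24.7 CPM in gastrocnemius. Stellate cell markers, 8 genes, summed to 222 to 351 CPM in liver and to more in gastrocnemius, 2928 to 6149 CPM. Most of the latter came from Des, at 3295.5 CPM in WT gastrocnemius and 6.31 CPM in WT liver. The part of these cells in the levels of the factors was not tested. In liver the 6 ventricular markers summed to between 0.446 and 5.75 CPM and the 10 atrial markers to between 55.9 and 77.7 CPM, most of it from Nr2f2 and Pam, and Nppa and Sln of the atrial set had no read in WT livers.

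Promoters of the factors were read in RefSeq (GRCm38.p6) for the 250 bases before the annotated start. Of the 8 genes, Nkx2-5, Tbx20, Hand2 and Irx4 had an entry that could be read here. The GATA-site letters TGATAA, also with A as the first letter, G as the last letter or both, were searched on both strands, as were the NK2-site letters AAGTG and the T-box half-site letters AGGTGT. The 3 kinds occurred in 27.1%, 40.8% and 12.0% of all 27025 promoters of this length. The Hand2 promoter (chr8:57320733-57320982, plus strand) held 2 GATA-type matches and 1 NK2-type match, and the Tbx20 promoter (chr9:24774304-24774553, minus strand) held none of them. Both windows lie outside the annotated exons of their genes, and these 2 genes had reads in all 4 tissues of Mtm1-/y mice at uneven levels, so they are shown as a pair, 5′ to 3′ on the gene's strand, with the matches in capitals:
Hand2 promoter: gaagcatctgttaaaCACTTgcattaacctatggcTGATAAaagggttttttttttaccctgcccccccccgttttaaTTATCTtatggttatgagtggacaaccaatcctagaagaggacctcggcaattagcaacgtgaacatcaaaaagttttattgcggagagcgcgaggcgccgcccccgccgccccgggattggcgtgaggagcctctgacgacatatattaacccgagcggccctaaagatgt
Tbx20 promoter: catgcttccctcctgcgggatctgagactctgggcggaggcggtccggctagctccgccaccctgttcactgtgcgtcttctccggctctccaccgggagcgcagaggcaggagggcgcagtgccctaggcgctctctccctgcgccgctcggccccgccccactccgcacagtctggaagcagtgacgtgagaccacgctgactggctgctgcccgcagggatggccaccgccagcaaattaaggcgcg
The Hand2 window was 49.2% G and C with 15 CpG, and the Tbx20 window 68.8% with 22. The E-box letters CANNTG, bound by helix-loop-helix proteins and present in 66.0% of promoters, matched at 2 places in Hand2, one of which overlaps the NK2-type match, and at none in Tbx20. Nkx2-5 and Irx4 held no GATA, NK2 or T-box letters in this window, and their windows reach into an annotated exon, so they are not printed. A match is a string of letters and was not tested for binding.

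The relatives of these factors did not share one tissue pattern. The 4 other GATA genes include Gata2 and Gata5. In WT mice 2 of 3 tested were called higher in heart than in gastrocnemius, none in either direction against diaphragm and 3 of 3 against liver; Gata5, another endodermal and cardiac GATA factor, had 1.88 CPM in WT heart and 3.27 CPM in WT diaphragm. Of the 9 T-box relatives tested, 1 was called higher and 4 lower in WT heart than in gastrocnemius, and 0 higher and 5 lower than in diaphragm. Of all genes, 14.3% were called lower in WT heart than in gastrocnemius and 18.2% than in diaphragm. Tbx15, a factor of fast muscle fibres, led these with 255 CPM in WT gastrocnemius and 141 CPM in WT diaphragm against 0.407 CPM in WT heart. Tbx1, Tbx4 and Tbx3 were also called lower in WT heart than in diaphragm, with log2 differences of -6.29, -3.88 and -2.03. All 4 tested Iroquois relatives (Irx1, Irx2, Irx3 and Irx5) were called higher in WT heart than in each other tissue, and in Mtm1-/y mice 3, 3 and 4 of them against gastrocnemius, diaphragm and liver. Irx3, of the conduction system, had 7.10 CPM in WT heart and at most 0.903 CPM elsewhere in WT mice. No NK2 relative passed the filter, and the highest group mean of Nkx2-2, Nkx2-3, Nkx2-6 and Nkx2-9 was 0.186 CPM.

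Of 28 target genes of these factors (sarcomere, calcium handling, channels and natriuretic peptides), 26 were called higher in WT heart than in gastrocnemius, 27 than in diaphragm and 28 than in liver, with medians of 5.83, 5.98 and 12.8 on the log2 scale against 0.08, -0.07 and 0.13 over all genes tested. In Mtm1-/y mice the counts were 26, 24 and 28. Ryr2, the calcium release channel, stood at 1467 CPM and Tnni3, cardiac troponin I, at 2718 CPM in WT heart, against at most 0.183 and 1.21 CPM elsewhere in WT mice. The 15 cofactors were mixed. Myocd, a coactivator of muscle genes, and Zfpm2, the FOG2 partner of GATA4, were called higher in WT heart than in all 3 tissues, whereas Mef2c was called lower than in gastrocnemius (log2 difference -3.625) and diaphragm (-2.48) and higher than in liver (4.53). Among the helix-loop-helix relatives, Tcf21, known in epicardium and fibroblasts, was the 1 of 6 called higher in WT heart than in both muscles.

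Hearts of 1 genotype differed among themselves in Tbx5 far more than in the other factors, and Tbx5 went along with atrial markers, whose part in it was not tested beyond the fits given with the genotypes. Myl7, the atrial myosin light chain, stood at 711, 39.1, 600 and 4172 CPM in WT hearts 1 to 4 and at 4.12, 1082, 1.11 and 8.16 CPM in Mtm1-/y hearts 1 to 4. The 10 atrial markers summed to between 1432 and 33086 CPM in WT hearts and between 909 and 7077 in Mtm1-/y hearts, and all 10 were detected in each genotype. WT heart 4, the highest library in Myl7, was the highest in Tbx5 (184 CPM), Tbx20 (211 CPM), Nkx2-5 (18.6 CPM) and Gata6 (65.8 CPM) as well. Mtm1-/y heart 2, the highest of its group in Myl7, was the highest of its group in Tbx5 (55.9 CPM) and Nkx2-5 (14.0 CPM). Irx4 ran the other way in WT heart 4, where it was lowest at 6.52 CPM and where the ventricular light chain Myl2 stood at 1814 CPM against 5704 to 7243 CPM in the other 7 hearts. The highest library held 9.56 times the lowest for Tbx5 in WT hearts, 3.11 times for Irx4, 1.47 times for Tbx20, 1.45 times for Nkx2-5 and 1.17 times for Gata4.

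**Figure D3:**
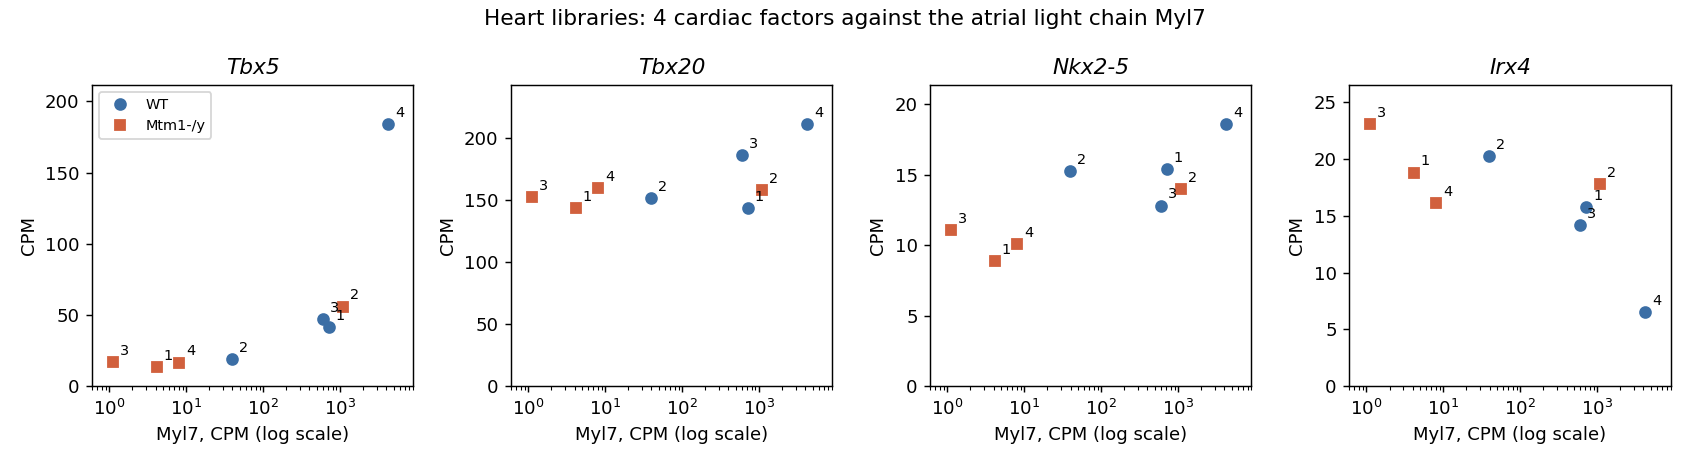
CPM of Tbx5, Tbx20, Nkx2-5 and Irx4 (vertical axes, linear from 0) against CPM of Myl7 (horizontal axis, log scale) in the 8 heart libraries; circles are WT, squares Mtm1-/y, and the numbers are the replicate numbers. WT heart 4 has the highest Myl7 (4172 CPM), Tbx5, Tbx20 and Nkx2-5 and the lowest Irx4, and the 4 libraries with the least Myl7 hold 13.4 to 19.2 CPM of Tbx5.

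None of the 7 factors tested in heart was called between genotypes, and 0.00656% of all genes were called (1 gene of 15238, Mtm1, with 1353 at an unadjusted p under 0.05 and 69 called by DESeq2). Gata4 differed by 0.13 on the log2 scale (SE 0.09, adjusted p = 0.579), Gata6 by -0.04 (SE 0.10, adjusted p = 0.866), Hand2 by 0.04 (SE 0.17, adjusted p = 0.921) and Tbx20 by -0.18 (SE 0.12, adjusted p = 0.582). Their libraries overlapped between genotypes. Nkx2-5 had the smallest p of the 7, with a log2 difference of -0.51 (SE 0.16, edgeR adjusted p = 0.546; unadjusted 0.0115). Its level was 12.8 to 18.6 CPM in WT hearts and 8.85 to 14.0 in Mtm1-/y hearts, and only Mtm1-/y heart 2, at 14.0 CPM, reached into the WT range. Tbx5 had the largest difference, -1.52 (SE 0.72, adjusted p = 0.546), and Irx4 stood at 0.41 (SE 0.28, adjusted p = 0.586).

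The differences of Tbx5 and Irx4 moved with the atrial markers, of which 10 of 10 were tested, none was called and 9 had a fitted difference below 0, with a median log2 difference of -2.385 against -0.0016 over all genes. Markers of several other cell types moved in the same direction, with no gene called. The median log2 difference was -2.58 over 8 white adipocyte markers, 7 of them below 0, -0.86 over 7 mesothelial markers (6 below 0), -0.81 over 4 smooth muscle markers (4 below 0) and -0.42 over 7 fibroblast markers (7 below 0). The mesothelial markers summed to 61.25 to 324 CPM in WT and to 38.2 to 155.7 CPM in Mtm1-/y hearts, and the white adipocyte markers to 420 to 535 and 405 to 510.5 CPM. WT heart 4 was the highest of the 8 hearts in the summed mesothelial (324 CPM), fibroblast (3929 CPM), smooth muscle (858 CPM) and endothelial (698 CPM) markers as well as in the atrial ones. Most of the white adipocyte sums came from Fabp4, whose mean was 405.7 CPM (WT) against 465.5 CPM (Mtm1-/y). These sums therefore say little of the other 7 adipocyte genes, whose means were all lower in Mtm1-/y hearts. Cfd, the next most abundant, averaged 23.8 CPM (WT) against 3.74 CPM (Mtm1-/y). Not every list fell. Skeletal muscle markers summed to 1451 to 2417 CPM in WT and 1832 to 2995 CPM in Mtm1-/y hearts, and ventricular markers to 4782 to 12037 and 10017 to 10742 CPM. Pacemaker and conduction markers were not among these exceptions and leaned lower in Mtm1-/y hearts, with overlapping libraries. They summed to 151.5, 100.6, 185 and 165.1 CPM in WT hearts 1 to 4. In Mtm1-/y hearts 1 to 4 the sums were 100.1, 158.6, 94.75 and 84.87 CPM. The part of any of these cells in the differences was not tested. With the atrial marker score as a covariate the log2 difference of Tbx5 was 0.40 (adjusted p = 1.00), that of Irx4 0.0025 and that of Nkx2-5 -0.26 (adjusted p = 1.00). Without the 4 hearts over 100 CPM of Myl7, which left WT heart 2 and Mtm1-/y hearts 1, 3 and 4, Tbx5 differed by -0.29, Irx4 by -0.06 and Nkx2-5 by -0.60 (adjusted p = 0.631). The single WT heart is there assumed to vary as the 3 Mtm1-/y hearts do. Leaving out 1 heart at a time gave -2.24 to -0.49 for Tbx5 and -0.64 to -0.40 for Nkx2-5. Of the 28 target genes 0 were called, with a median of -0.02.

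**Figure D4:**
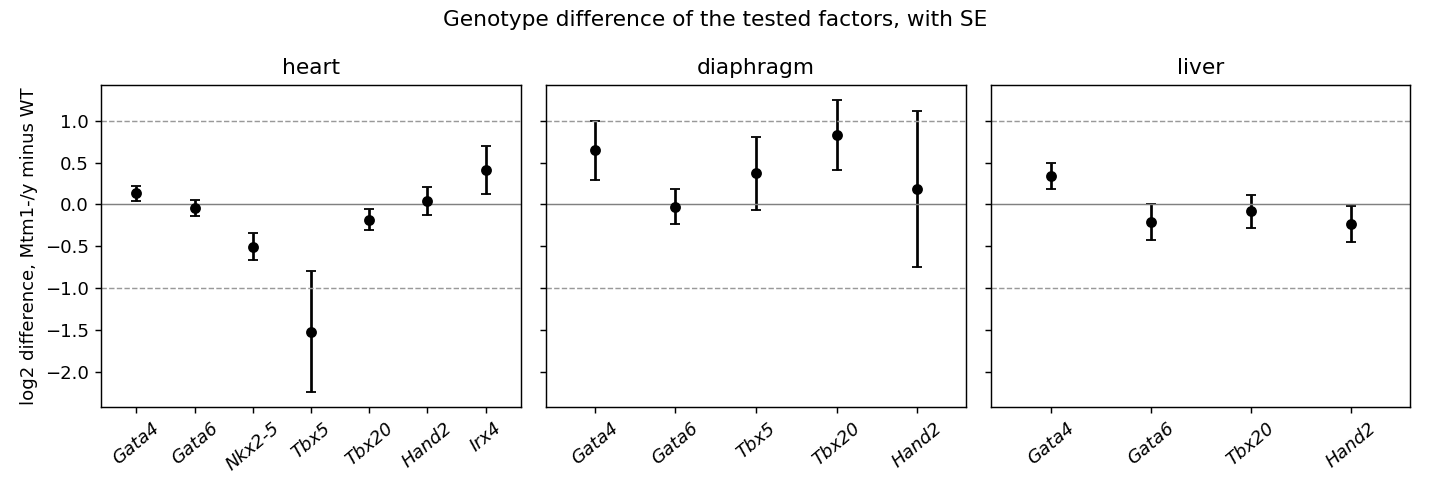
Log2 difference between Mtm1-/y and WT mice for the factors that passed the filter on low counts, in heart (7), diaphragm (5) and liver (4); bars are the standard errors of edgeR's fit, and dashed lines mark a log2 difference of 1 in either direction. Only Tbx5 in heart lies past that line, with a standard error of 0.72, and no point was called.

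In the gastrocnemius, where 6.63% of all genes were called between genotypes, none of the 8 factors held enough reads to be tested. The reads by genotype were nevertheless uneven for Tbx20, Hand2 and Irx4. Tbx20 gave 0, 0, 0 and 0 reads in WT and 2, 2, 3 and 1 reads in Mtm1-/y libraries. That was 2.34-fold more in CPM when the WT group was set at a floor of 3 reads. The ratio takes the Mtm1-/y reads without their own counting error, so it is not a firm lower bound. Hand2 gave 0, 3, 5 and 0 reads in WT and 4, 10, 13 and 10 in Mtm1-/y libraries, 0.0699 ± 0.0825 and 0.283 ± 0.125 CPM (SD, n = 4 each). The groups of Hand2 overlapped, those of Tbx20 did not, and the Irx4 reads came from 1 library. Without a filter on low counts edgeR gave adjusted p = 0.0642 for Tbx20, 0.162 for Hand2 and 0.140 for Irx4. An edgeR fit over all 30 libraries, in which Tbx20 passed the filter through other tissues, called Tbx20 (adjusted p = 0.0165). In the WT gastrocnemius the mesothelial markers summed to 0.715 to 1.47 CPM, against 4.38 to 12.8 CPM for Mtm1-/y mice. Most of that rise was Msln, with a mean of 0.245 CPM (WT) against 6.14 CPM (Mtm1-/y). Bnc1 reached 3.27 CPM in its highest Mtm1-/y library. Upk3b, Upk1b, Lrrn4 and Wt1 of the same set averaged at most 0.13 CPM there, whichever the genotype. White adipocyte markers summed to 219 to 336 CPM (WT) and 352 to 536 CPM (Mtm1-/y). The part of mesothelial or fat cells in these reads was not tested. Of the 22 target genes tested there, 5 were called higher and 3 lower in Mtm1-/y mice, with Ankrd1, Myl4, Csrp3 and Tnnt2 at the smallest p.

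In the diaphragm 0 of the 5 factors tested were called, as were 0.0119% of all genes (2 of 16796, and 302 by DESeq2). Gata6 differed by -0.03 (SE 0.21, adjusted p = 0.980), Gata4 by 0.65 (SE 0.35, adjusted p = 0.585), Tbx20 by 0.83 (SE 0.42, adjusted p = 0.549), Tbx5 by 0.37 (SE 0.44, adjusted p = 0.856) and Hand2 by 0.18 (SE 0.93, adjusted p = 0.977). Hand2 followed the hepatocyte markers from library to library. Its 3 lowest libraries, WT 3 (0.0839 CPM), Mtm1-/y 4 (0.215) and Mtm1-/y 1 (0.420), were the 3 with the least hepatocyte marker RNA (446, 770 and 2871 CPM), and the highest, Mtm1-/y 2 (1.91 CPM), held the most. Gata4 was also highest in Mtm1-/y 2 (10.4 CPM), but stayed at 3.33 and 4.38 CPM in the 2 libraries with the least. Gata6 lay between 5.23 and 8.81 CPM with its extremes among libraries rich in hepatocyte markers, and Tbx20 was highest in Mtm1-/y 4 (1.502 CPM) and lowest in WT 3 (0.280 CPM), which both had little. The part of liver tissue in these levels was not tested beyond the next fit. Without the 4 libraries over 10000 CPM of hepatocyte markers (leaving 1 WT and 2 Mtm1-/y libraries), the single WT diaphragm is assumed to vary as the other groups do. All 7 factors tested were called higher in WT heart than in that 1 library, and Tbx20 and Hand2 differed between genotypes by 1.98 and 1.87 (adjusted p = 0.622 and 0.664).

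**Figure D5:**
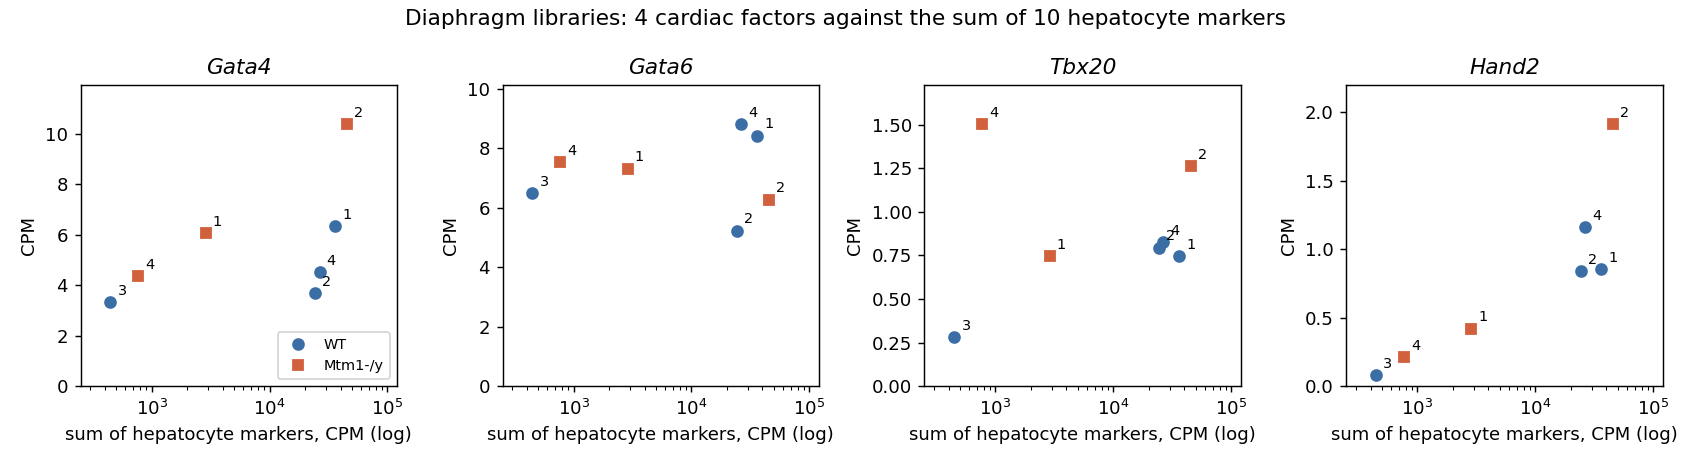
CPM of Gata4, Gata6, Tbx20 and Hand2 (vertical axes, linear from 0) against the summed CPM of 10 hepatocyte markers (horizontal axis, log scale) in the 7 diaphragm libraries; circles are WT, squares Mtm1-/y, and the numbers are the replicate numbers. Hand2 is at 0.0839 to 0.420 CPM in the 3 libraries with the least hepatocyte marker RNA and at 0.837 to 1.91 CPM in the other 4, while Gata6 stays between 5.23 and 8.81 CPM.

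In the liver 0 of the 4 factors tested were called between genotypes, as were 0% of all genes by edgeR (606 of 14305 at an unadjusted p under 0.05 and 12 called by DESeq2). Gata4 averaged 15.7 ± 2.89 CPM over the WT livers (SD, n = 3) and 20.5 ± 3.11 over the Mtm1-/y livers (SD, n = 4). This was a log2 difference of 0.34 (SE 0.16, edgeR adjusted p = 0.969) with overlapping libraries. Gata6, Tbx20 and Hand2 differed by -0.21, -0.09 and -0.23, each with a standard error of 0.20 to 0.22.

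Whether the genotype difference itself varied between tissues was tested as an interaction. The 7 factors entered the test between heart and gastrocnemius through their heart libraries alone. None passed the filter on low counts in gastrocnemius, so the count called is a description. Between heart and gastrocnemius, where 7.73% of all genes were called, 1 of 7 factors was called, Tbx20 (adjusted p = 0.0115). That call rests on the 8 reads in Mtm1-/y and none in WT gastrocnemius set against hearts at 154 ± 7.20 and 173 ± 31.4 CPM (SD, n = 4 each), and its fitted log2 value, -4.19, depends on how a group without reads is fitted. Hand2 followed at -1.89 (SE 0.72, adjusted p = 0.0747). DESeq2 called both (adjusted p = 0.0234 and 0.0171), as did edgeR without WT gastrocnemius 3 (0.0409 for Hand2) or Mtm1-/y gastrocnemius 1 (0.0425). Between heart and diaphragm none of the 7 factors was called (0.00573% of all genes), with Tbx5 at -1.87 (adjusted p = 0.575) and Tbx20 at -0.99 (SE 0.38, adjusted p = 0.396). Nkx2-5 and Irx4 entered that test through their heart libraries alone. In diaphragm Nkx2-5 had 0 reads, and Irx4 had 1 read in WT and 2 reads in Mtm1-/y mice. The test therefore says little about these genes. Between gastrocnemius and diaphragm no factor was called either (0.234% of all genes). Only Gata4, Gata6, Tbx5, Tbx20 and Hand2 were tested there, and they entered through their diaphragm libraries.

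Genes whose pattern over the 8 group means lay nearest to each factor were found among 15944 genes by the root mean square difference of centred log2 CPM. The nearest to Gata6 was its antisense partner 1010001N08Rik (0.50) and the second nearest to Hand2 was Hand2os1 (0.57), after Cdh2, N-cadherin (0.55). Hand2os1 was also the nearest to Tbx20 (0.99). For Gata4 the nearest were Dsg2, a desmosomal cadherin (1.07), Ptgds (1.17) and Tcf21 (1.36), none closer than 1 log2 unit. Kcnd2, a potassium channel of the transient outward current, and Mylk3, the cardiac myosin light chain kinase, were among the 3 nearest to Tbx5 (0.58 and 0.62). Kcne1 was the second nearest to Irx4 (0.42). The nearest to Nkx2-5 were Gm26795 (0.26), 9330158H04Rik (0.29) and Gm10435 (0.38), all without a read in WT liver.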

How the data were processed

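Libraries were made by the authors from poly(A) RNA with a strand-specific kit and sequenced as single reads. As the study's methods and processing notes state, reads were trimmed with cutadapt 1.10, aligned to mm10 with STAR 2.5.3a and counted per Ensembl gene with HTSeq 0.6.1p1. The deposited values are raw counts, used as deposited; each replicate is a column, and none was pooled. Whether libraries with one number in different tissues came from one mouse is not stated, and if they are not separate animals, p-values measure only the spread between these libraries. The least different pair of replicates differed 11.3 times more than sampling noise, so no library was counted as a duplicate.

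Genotypes were compared within each tissue, tissues within each genotype, and interactions over 2 tissues, with edgeR 4.0.16 (TMM, quasi-likelihood test, filterByExpr at a count minimum of 10) in R 4.3.3. DESeq2 1.42.0, DESeq2 size factors, no filter, all 30 libraries in 1 fit, the replicate number as a block, and leaving out each library were alternatives. The atrial marker covariate and the fits without libraries rich in Myl7 or hepatocyte markers were added after seeing the data. The steps were tested on simulated data, with changes planted only in genes well above the filter on low counts. That test does not cover factors with few reads or groups with an outlying library. Levels are CPM, and log2 CPM for likeness used a prior count of 2. Exon lengths are from GENCODE M21 on mm10.

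The 8 genes and all gene lists were chosen with earlier results of these data known. All 8 were named. From another list up to 4 called genes with the smallest p, or else the 2 most abundant, could be named. From marker lists these were the most abundant 2 and any at 0, and for each factor the 3 nearest patterns. Upk1b, Lrrn4, Upk3b, Msln, Wt1, Bnc1, Gata3, Gata5, Irx2, Irx3, Tcf21, Kcne1, Myl7, Myl2 and the NK2 genes were named after their values were seen where this rule did not name them. Intervals and floors cover counting error only.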

Additional observations from a re-analysis of the deposited data

Results flagged for a closer look

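In 8 of 27 groups of 4 libraries with enough reads, 1 library stood apart from the other 3 by Dixon's criterion. For independent, normally distributed values chance meets it in about 1 in 20 groups. The groups here share libraries, and some hold few reads (Gata6 in WT gastrocnemius 14, 4, 4 and 3), so the 8 groups cannot be set against that rate. Tbx5 stood apart in WT heart 4 (183.9 CPM) and in Mtm1-/y heart 2 (55.86 CPM), the hearts of each genotype with the most Myl7. Gata6 stood apart in Mtm1-/y heart 3 (50.47 CPM, low), WT gastrocnemius 1 (0.4292 CPM), Mtm1-/y gastrocnemius 3 (0.5498 CPM) and Mtm1-/y liver 2 (8.90 CPM). Irx4 stood apart in Mtm1-/y gastrocnemius 3 (1.191 CPM), and Tbx20 in WT diaphragm 3 (0.2796 CPM, low), the library with the least hepatocyte marker RNA. The genotype difference of Tbx20 differed between heart and gastrocnemius by -4.19 on the log2 scale, from 8 reads against 0 in gastrocnemius.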

How the results depend on the processing

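The 7 detected factors were called higher in heart than in each other tissue under every alternative run, and their differences kept direction and call in 588 of 588 cases. Gastrocnemius and liver were set against diaphragm under the same alternatives, chosen after seeing the data. In WT gastrocnemius the call of Hand2 ended without the libraries rich in hepatocyte markers (-0.29), and Tbx5 was called without a filter, with DESeq2, with these tissues alone and with the replicate block (-3.74); in Mtm1-/y mice Hand2 was called with DESeq2 (-1.51) and without diaphragm 4 (-1.96). Signs changed, with no call, for Nkx2-5 with the replicate block (0.0039 and -0.095 in WT and Mtm1-/y gastrocnemius, 0.083 in WT liver) and with 1 library left out (0 to 2.28 in Mtm1-/y liver), for Irx4 without the libraries rich in hepatocyte markers (0 in WT gastrocnemius and liver) and with 1 left out (-1.71 to 0 in WT and -0.53 to 4.44 in Mtm1-/y gastrocnemius, -1.71 to 0 in WT liver), and for Gata6 with 1 left out (-0.086 to 0.20 in WT and -0.23 to 0.0086 in Mtm1-/y liver). Counts of all genes called between genotypes moved: heart to 69 with DESeq2, 5 with edgeR on all 30 libraries and 1 to 19 when 1 library was left out; gastrocnemius to 4479 by adjusted p alone; diaphragm to 302 with DESeq2, 201 on all 30 libraries, 0 without the libraries rich in hepatocyte markers and 0 to 140 when 1 was left out; liver to 6 without a filter, 12 with DESeq2, 11 on all 30 libraries and 0 to 8 when 1 was left out. Factors called in gastrocnemius went from 0 to 1 on all 30 libraries (Tbx20), and between heart and gastrocnemius from 1 to 2 with DESeq2 and 1 to 2 when 1 library was left out. Genotype differences in heart changed sign for Gata6 (0.11 with the atrial score, 0.13 without the hearts rich in Myl7, -0.097 to 0.030 with 1 heart left out), Tbx5 (0.40 with the atrial score), Tbx20 (0.015 in both), Hand2 (-0.028 without the hearts rich in Myl7, -0.092 to 0.16 with 1 left out) and Irx4 (-0.057 without them). In diaphragm they did so for Gata6 (0.18 without the libraries rich in hepatocyte markers, -0.15 to 0.080 with 1 left out) and Hand2 (-1.21 to 0.65), and in liver for Tbx20 (-0.17 to 0.039). None of these was called, and the cause was not tested. With the replicate number as a block, 0 genes were called in diaphragm and Hand2 there stood at -0.67. Same-numbered libraries of the genotypes did not deviate together throughout (correlations from -0.44 to 0.20 in heart and from -0.58 to 0.40 in diaphragm). Those are different mice, so that check cannot show whether tissues of 1 number share a mouse. Across tissues, same-numbered WT libraries correlated at 0.032 to 0.155 between heart and gastrocnemius and at 0.0059 to 0.223 between heart and diaphragm. In both, 3 of 4 correlated best with their own number, against 1 of 4 and 2 of 3 in Mtm1-/y mice. Sharing of a mouse was not settled by these values, and the main fits did not take the numbers as pairs. The depth limits what can be said of factors with a few reads, such as Tbx20 and Irx4 in gastrocnemius.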
